A study of Rattus norvegicus with 21 samples.

Results

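The genes described here are 95 of the 13438 genes measured in the rat insulin-secreting line INS-1 (INS1 in the group names) whose RNA level fell and then came back while the cells were kept with 2 inflammatory cytokines. They were chosen by their measured log2 levels in the empty-vector line pcDNA alone. On group means, a gene had to be lower at 6 h than at 0 h by at least 0.8 on the log2 scale, to rise again by at least 0.8 between 6 h and 16 h, and to stand within 0.4 of its 0 h level at 16 h. On this scale a difference of 1 is a 2-fold change. Of 754 genes that met the limit on the fall, 192 also met the limit on the rise, and 95 of those (0.707% of all genes) met the third limit.

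The series held 21 arrays, 1 per RNA sample, in 7 groups of 3. INS-1 was derived from an insulinoma and serves as a stand-in for beta cells in culture. Untransfected INS1 cells were sampled at 0 h only. The pcDNA line carries the empty vector and pCTSH1 is a single clone stably transfected with a plasmid for cathepsin H (CTSH), a lysosomal protease; both were sampled at 0 h, 6 h and 16 h. Both lines were precultured in multiwell plates before recombinant mouse IL-1β at 150 pg/ml and recombinant rat IFNγ at 5 ng/ml were added. No untreated arrays at 6 h or 16 h were analysed here, so cytokines and time in culture cannot be told apart. The labels number the replicates and do not state whether each was a culture of its own, so the p-values cover the spread among these arrays, which may be technical.

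IL-1β and IFNγ are released by immune cells that invade the islets in type 1 diabetes. In beta cells IL-1β acts largely through NF-κB and MAP kinases, and IFNγ through JAK kinases. A transcript level reflects both synthesis and decay, and arrays of total RNA do not separate them. A fall that reverses within hours can be seen only for transcripts short-lived enough to follow a change in synthesis or decay in that time.

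The cells carried the markers of the line. All 6 beta-cell markers measured, Ins1, Ins2, Iapp, Pdx1, Slc2a2 and Chga, stood above background in each group, where background is the highest nonspecific control probe set of an array (log2 level 3.88 to 4.17). In pCTSH1, Ins1 averaged 13.72 at 0 h, 13.69 at 6 h and 13.55 at 16 h, and Ins2 averaged 13.27, 13.21 and 13.09. The 3 delta and PP cell markers were at background in all groups, as were 4 of 5 leukocyte markers, Ptprc among them, 4 to 6 of 6 exocrine markers and 5 to 6 of 6 fibroblast markers. Of the alpha-cell markers only Gcg was above background, and the summed alpha-cell level in pCTSH1 ran from 8.82 to 9.11 at 0 h, 8.50 to 8.68 at 6 h and 6.89 to 7.24 at 16 h, a course that did not turn back. The probe set for Ctsh read at background on 14 of 21 arrays (log2 level 3.48 to 5.08) and so did not check the labels. Rac2, the GTPase named in the series title, stood at 4.35 to 4.47 in pCTSH1 at 0 h, 5.31 to 6.16 at 6 h and 7.33 to 7.44 at 16 h, rising throughout and not dipping.

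The dip and the recovery were tested in pCTSH1, whose arrays did not enter the choice. Of the 95 genes, 93 fell at 6 h in pCTSH1, against 21.3% of all genes (limma, adjusted p below 0.05). Between 6 h and 16 h 91 rose, against 24% of all genes. Both calls were made for 90 genes, against 6.97% of all genes. The fall and the rise share the 6 h arrays, so a low reading there moves both calls together, in the 95 genes and in the background alike. No gene of the 95 was called higher at 6 h (13% of all genes) and none was called lower at 16 h than at 6 h (25.2% of all genes).

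The median change over the 95 genes in pCTSH1 was −0.99 from 0 h to 6 h, with a range of −2.25 to −0.24, and 0.89 from 6 h to 16 h, with a range of 0.14 to 1.96. The medians over all genes were −0.06 and 0.00. In pcDNA, where the limits were set, the medians of the 95 genes were −1.10 and 1.17, which is a description of the choice. Single arrays were compared as well. In pCTSH1 all 3 arrays at 6 h lay below all 3 at 0 h for 93 of the 95 genes (32% of all genes), below all 3 at 16 h for 91 (28.1% of all genes), and below both for 89 (10.4% of all genes).

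**Figure D1:**
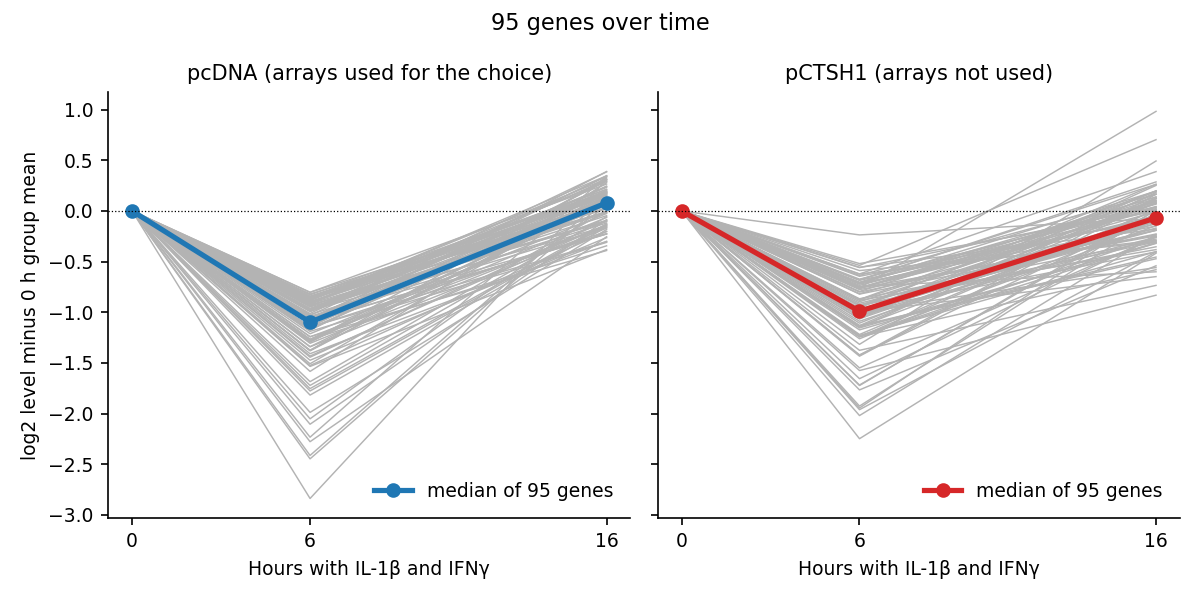
Log2 level minus the 0 h group mean (vertical axis) against hours with IL-1β and IFNγ (horizontal axis) for the 95 genes, 1 grey line per gene and a coloured line for their median, in pcDNA (left, the arrays of the choice) and pCTSH1 (right). The median in pCTSH1 goes from 0 to −0.99 at 6 h and −0.07 at 16 h, and lines end both above and below the start.

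**Figure D2:**
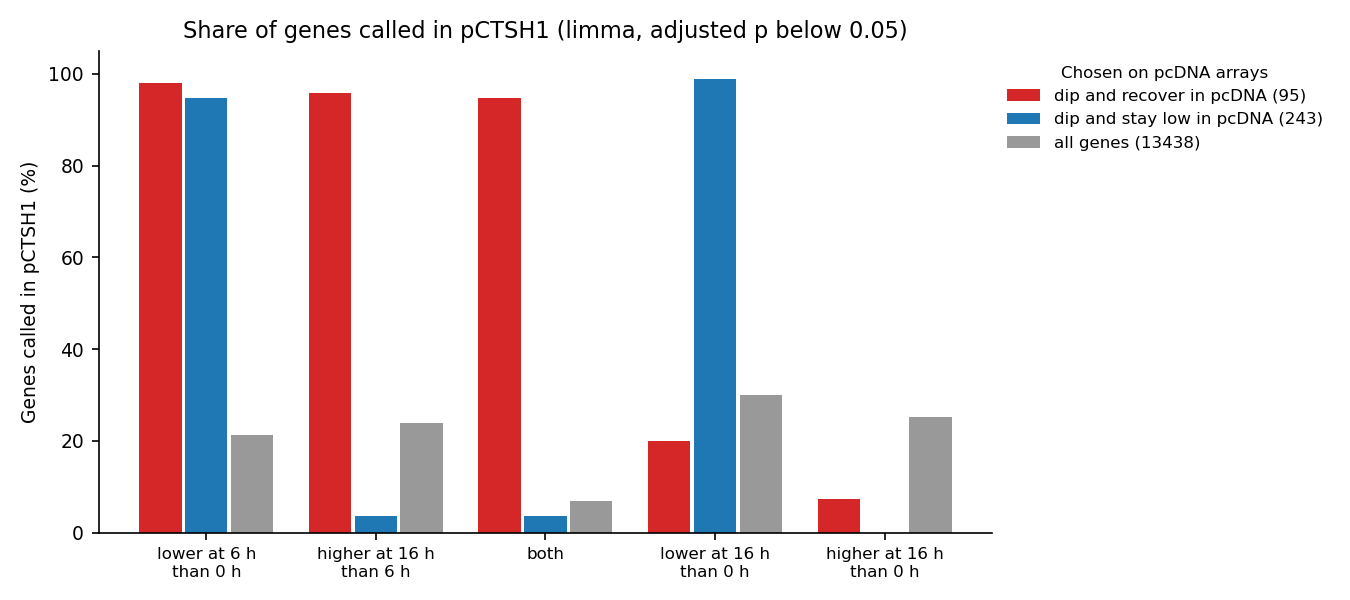
Share of genes (vertical axis, percent) called in pCTSH1 by limma for each call on the horizontal axis, in the 95 genes that dipped and recovered in pcDNA (red), the 243 genes that dipped as far and stayed low there (blue) and all 13438 genes (grey). Falls at 6 h were called for 93 of the red set and 230 of the blue set, and rises by 16 h for 91 and 9.

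Genes that dipped as far in pcDNA and stayed low there serve as the comparison. In pcDNA, 243 genes fell by at least 0.8 at 6 h and then moved by no more than 0.4 up to 16 h. In pCTSH1, 230 of these 243 genes fell at 6 h, 9 rose again by 16 h and 89 fell further, and 240 were lower at 16 h than at 0 h. Of the 95 genes, 19 were lower at 16 h than at 0 h in pCTSH1 (30.1% of all genes) and 7 were higher (25.2% of all genes). The remaining 69 were not called, whereas 55.2% of all genes were called in either direction. The pattern of a fall, a rise and no call between 16 h and 0 h was met by 66 of the 95 genes and by 3.28% of all genes.

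A missing call does not show that the level came back in full, so the interval of the 16 h minus 0 h difference matters. The 95% interval of limma lay within 0.4 of 0 on both sides for 36 of the 95 genes and within 0.5 for 58. Adora2b (−0.32 to 0.36), Cry2 (−0.37 to 0.34), Akr1c19 (−0.27 to 0.14) and Tsc22d3 (−0.19 to 0.10) were among the 36. By size alone, the group means of 42 of the 95 genes met all 3 limits of the choice in pCTSH1 too, against 0.513% of all genes; with the mean over all probe sets of a gene in place of the brightest, 27 genes did. These 42 are 44.2% of the 95 genes and 60.9% of the 69 genes that met the limits in pCTSH1. The limit on the fall was met by 65 genes, that on the rise by 59 and that on the return by 79.

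What these genes had in common beyond their time course was looked for at their promoters. RefSeq promoters (GRCr8 build) were matched for 79 of the 95 genes and for 11057 genes in all, and the 250 bases upstream of the start were searched on both strands for letters of 10 motifs. The GC box, GGGCGG, was in 60 of 79 (75.9%) against 54.6% of all promoters and 62.8% of the promoters of the genes that stayed low. The median GC content of the same stretches was 66.0% in the 79 promoters, 59.2% in all and 62.0% in those that stayed low, so the motif and the base composition moved together. The 4 sequences below show how these stretches look in 4 genes with a strong dip: the adenosine receptor gene Adora2b (chr10:47439462-47439711 on the + strand), the neuronal transcription factor gene Neurod2 (chr10:83824278-83824527 on the minus strand), the clock repressor gene Cry2 (chr3:98860438-98860687 on the minus strand) and the stress response gene Sesn1 (chr20:46948469-46948718 on the + strand). Capitals mark each GC box, GGGCGG, or CCGCCC where it lies on the opposite strand, and every line ends at the base before the start.
Adora2b: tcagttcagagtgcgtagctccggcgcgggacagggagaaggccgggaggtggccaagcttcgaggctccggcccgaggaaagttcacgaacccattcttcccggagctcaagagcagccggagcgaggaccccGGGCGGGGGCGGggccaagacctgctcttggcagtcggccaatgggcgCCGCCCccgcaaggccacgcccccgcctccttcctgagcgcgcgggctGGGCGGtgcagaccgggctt
Neurod2: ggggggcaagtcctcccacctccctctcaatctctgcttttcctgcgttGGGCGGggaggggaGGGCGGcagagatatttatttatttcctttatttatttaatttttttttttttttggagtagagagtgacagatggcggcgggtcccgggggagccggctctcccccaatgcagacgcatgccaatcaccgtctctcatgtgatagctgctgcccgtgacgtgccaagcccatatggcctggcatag
Cry2: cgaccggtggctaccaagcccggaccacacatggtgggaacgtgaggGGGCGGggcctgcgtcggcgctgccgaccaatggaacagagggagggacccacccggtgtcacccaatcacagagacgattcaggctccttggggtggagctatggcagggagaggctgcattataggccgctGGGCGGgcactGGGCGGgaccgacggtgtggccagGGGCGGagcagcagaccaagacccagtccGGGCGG
Sesn1: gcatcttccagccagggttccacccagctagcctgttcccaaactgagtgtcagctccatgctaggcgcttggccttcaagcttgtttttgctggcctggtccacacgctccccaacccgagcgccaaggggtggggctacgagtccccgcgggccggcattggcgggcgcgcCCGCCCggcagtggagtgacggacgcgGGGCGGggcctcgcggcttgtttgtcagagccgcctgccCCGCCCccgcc

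The stretch of Adora2b holds 4 GC boxes and that of Sesn1 holds 3, placed from 116 and 77 bases before the start onwards. Cry2 has 5, of which 1 ends at the last base before the start and 1 begins 203 bases before it. In Neurod2 both lie far upstream, at 201 and 187 bases, with an AT-rich run after them. Letters that resemble an NF-κB site (GGG and CC parted by 5 bases of any kind) were in 74.7% of the 79 promoters, 58.9% of all and 64.8% of those of the genes that stayed low. In the same order, CCAAT was in 40.5%, 35.1% and 39.7%, the E-box CACGTG in 8.86%, 7.85% and 9.05%, and the AP-1 letters TGANTCA in 5.06%, 4.80% and 3.02%. The cAMP response element TGACGTCA was in none of the 79, in 2.69% of all and in 3.02% of those that stayed low, and the GAS letters TTCNNNGAA were in 2.53%, 6.15% and 3.02%. Letters like the interferon-stimulated element (TTTC repeated 2 bases apart) were in 1.27%, 2.66% and 1.51%, TATAAA in 6.33%, 8.04% and 4.02%, and the sterol element letters TCACNCCAC in 1.27%, 0.968% and 2.01%. These are matches of letters and say nothing of bound factors. Neighbours on a chromosome were few: Tpra1 and Plxna1 adjoin each other among protein-coding genes, Rilpl1 and Rilpl2 have 1 gene between them, and Abtb1 and Tpra1 have 2.

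The deepest falls came from genes of different roles. Adora2b encodes the low-affinity A2B adenosine receptor, which couples to cAMP. It read 9.78, 9.86 and 9.34 in the 3 pcDNA arrays at 0 h, 7.05, 6.88 and 6.53 at 6 h, and 10.02, 10.09 and 9.81 at 16 h. In pCTSH1 the levels were 10.01, 9.80 and 9.65 at 0 h, 8.05, 8.06 and 7.52 at 6 h, and 9.76, 9.75 and 10.01 at 16 h. The 6 h arrays lay apart from all others in both lines, and the low point was less deep in pCTSH1. The change in pCTSH1 was −1.95 ± 0.16 to 6 h (SE, n = 3 arrays a group; limma adjusted p = 1.05e-08), a 3.85-fold fall, and 1.96 ± 0.16 back to 16 h (adjusted p = 5.04e-09). The fall in pcDNA was 7.15-fold, given as a description since the gene was chosen there.

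Among receptors and ligands, all 7 genes fell and rose in pCTSH1 (6.97% of all genes), as did 90 of the 95. Counts by role, here and below, restate that number and are no result about a role. The fibroblast growth factor receptors Fgfr3 and Fgfr4, receptor tyrosine kinases, were both in the set. Fgfr4 read 6.94, 6.86 and 7.05 at 0 h, 6.24, 6.46 and 6.10 at 6 h and 6.94, 6.79 and 6.90 at 16 h in pCTSH1, with no overlap between 6 h and the other times. Its fall was −0.68 ± 0.10 and its rise 0.61 ± 0.10 (limma adjusted p = 1.37e-05 and 2.57e-05). Fgfr3 changed by −0.97 ± 0.18 and 0.78 ± 0.18. The semaphorin receptor Plxna1 (−0.96 and 1.22), the adhesion receptor Adgrg1 (−1.04 and 1.12) and the growth factor Vegfb (−0.80 and 0.61) also fell and rose, as did the Nogo receptor Rtn4r (−1.01 and 0.91). Rtn4r was at background on at least 2 of the 3 pcDNA arrays at 6 h, so the size of its fall there is only a lower bound; the muscle actin crosslinker Actn2 was the other such gene, and no gene of the 95 was in pCTSH1.

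Transcription and chromatin regulators were the most numerous role group, with 21 genes. The role groups were chosen after the values were seen, and such regulators were not counted among all genes. Whether the set holds more of them than all genes do was therefore not tested. All 21 fell and rose in pCTSH1 and 16 of them were not called between 16 h and 0 h (44.8% of all genes). Neurod2, a basic helix-loop-helix factor of neuronal differentiation, read 6.83, 6.88 and 7.17 at 0 h, 6.01, 5.24 and 5.32 at 6 h and 7.16, 7.04 and 7.04 at 16 h in pCTSH1. The first of the 6 h arrays was higher than the other 2 but still below every array of the other times. Its changes were −1.43 ± 0.16 and 1.56 ± 0.16 (limma adjusted p = 8.54e-07 and 1.27e-07). In pcDNA it went from 7.37, 7.29 and 7.29 to 4.91, 5.45 and 5.27, and back to 7.23, 7.14 and 7.32.

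Forkhead factors with known work in the beta cell, 2 in number, were in the set. Foxa2, a pioneer factor of endoderm and islet genes, read 10.47, 10.52 and 10.55 at 0 h in pCTSH1, 9.15, 9.09 and 9.04 at 6 h, and 10.82, 10.69 and 10.53 at 16 h. It fell by 1.42 on the log2 scale and rose by 1.59 ± 0.08 (limma adjusted p = 5.6e-11 and 1.11e-11). Foxo1, which insulin signalling keeps out of the nucleus, fell from 7.42, 7.14 and 7.29 to 6.51, 6.75 and 6.30 and returned to 7.56, 7.45 and 7.27. Its changes were −0.76 ± 0.14 and 0.90 ± 0.14. Counts for gene lists are read against the shares of all genes in pCTSH1: 21.3% fell and 13% rose at 6 h, 24% rose and 25.2% fell between 6 h and 16 h, and 6.97% fell and then rose. Of 13 beta-cell factors measured on the list, 8 fell at 6 h (21.3% of all genes). Between 6 h and 16 h 3 rose (24%) and 6 fell (25.2%). The 3 that fell and then rose (6.97%) were Foxa2, Foxo1 and Myt1 (−0.77 and 1.79). Nkx6-1 fell by 2.97 and then by a further 0.81 (log2), Isl1 by 1.84 and 1.85, and Nkx2-2 fell by 1.71 with no call afterwards (0.31).

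Zinc finger and MYC-network genes followed. Of 227 zinc finger genes recognised by symbol, 54 fell at 6 h in pCTSH1, a share near that of all genes (21.3%), 111 rose between 6 h and 16 h (24% of all genes) and 34 did both (6.97% of all genes); 4 are in the set, Zfp667, Zfp395, Zfp652 and Zbtb49. Zfp667 read 7.16, 7.31 and 6.83 at 0 h, 5.98, 5.96 and 5.93 at 6 h and 7.01, 7.32 and 6.86 at 16 h in pCTSH1, and Zfp395 read 7.72, 7.68 and 7.59, then 6.35, 6.27 and 6.10, then 7.78, 7.67 and 7.43. The 16 h arrays of both genes overlapped their 0 h arrays, and the 6 h arrays did not. Zfp652 changed by −1.03 and 1.23 and Zbtb49 by −1.02 and 0.76. The MAX partners Mxi1 and Mxd4, which oppose MYC, changed by −0.68 and 0.94 and by −0.76 and 0.77. The chromatin readers Ing2 (−1.24 and 0.98) and Jade1 (−1.23 and 0.83), the Notch effector Rbpj (−0.82 and 0.59) and the glucocorticoid-induced Tsc22d3 (−0.76 and 0.71) fell and rose as well.

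**Figure D3:**
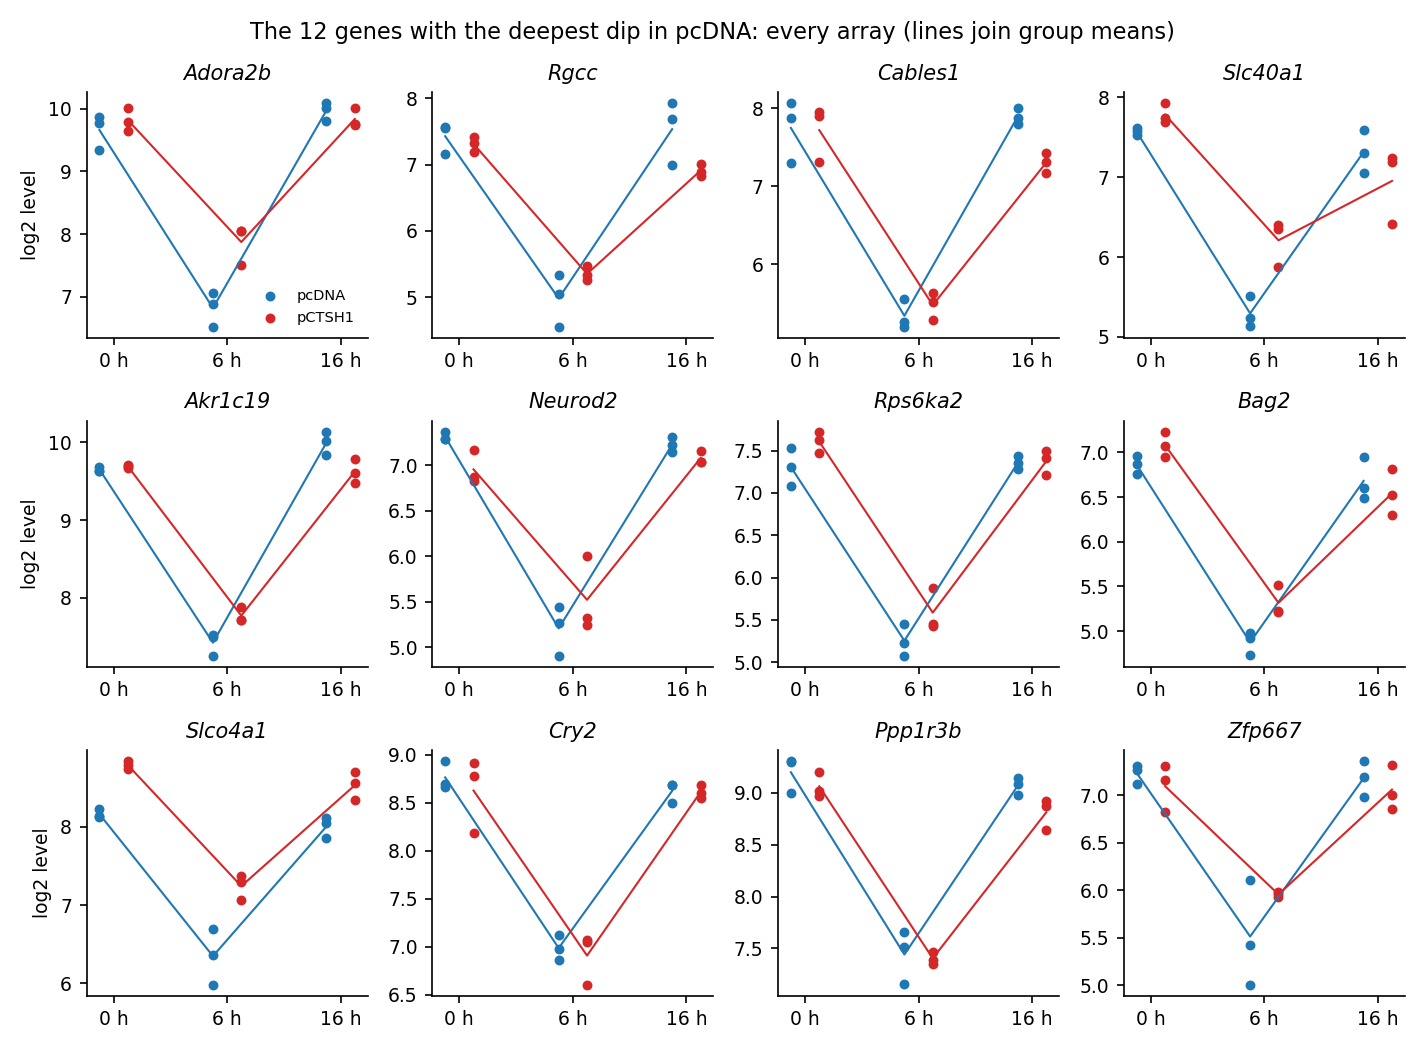
Log2 level (vertical axes) at 0 h, 6 h and 16 h (horizontal axes) on every array for the 12 genes with the deepest fall in pcDNA; blue points are pcDNA arrays, red points pCTSH1 arrays, and lines join the means of 3 arrays. In each of the 12 panels the 6 h points of both lines lie below all 0 h points, and the red line of Slc40a1 ends 0.83 below its start.

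Cry2 is a repressor of the circadian clock and had the deepest fall of the 21 regulators in pCTSH1. It read 8.92, 8.77 and 8.18 at 0 h, 7.07, 7.04 and 6.61 at 6 h and 8.54, 8.60 and 8.68 at 16 h in pCTSH1. The third 0 h array was the lowest of its group but more than 1 above every 6 h array. The changes were −1.72 ± 0.17 and 1.70 ± 0.17 (limma adjusted p = 1.28e-07 and 7e-08), and 16 h minus 0 h was −0.02. Its paralogue Cry1 fell by less and rose as well (−0.63 and 0.84).

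The clock list showed a rise by 16 h in most of its genes. Of 16 clock genes measured, 7 fell at 6 h in pCTSH1 (21.3% of all genes) and 1 rose (13%), Bhlhe40 (0.87 ± 0.11), while 12 rose between 6 h and 16 h (24%) and none fell (25.2%). All 7 that fell rose again: Cry2, Cry1, the repressor Bhlhe41 (−1.29 and 2.91), the PAR bZIP output factors Dbp (−1.01 and 1.44), Tef (−0.81 and 1.19) and Hlf (−0.80 and 0.54), and the nuclear receptor Nr1d2 (−0.42 and 1.51). At 16 h Bhlhe41 stood 1.62 above its 0 h level, Nr1d2 1.09, Dbp 0.43 and Tef 0.38, all called, while Cry1 (0.21), Hlf (−0.26) and Cry2 were not. Nr1d1 rose by 3.80 and Bmal1, the activator of the loop, by 2.40 after 6 h changes that did not pass the test (−0.47 and −0.14). Per1 (1.31) and Per2 (1.11) likewise rose between 6 h and 16 h, with no call at 6 h (−0.19 and 0.34).

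**Figure D4:**
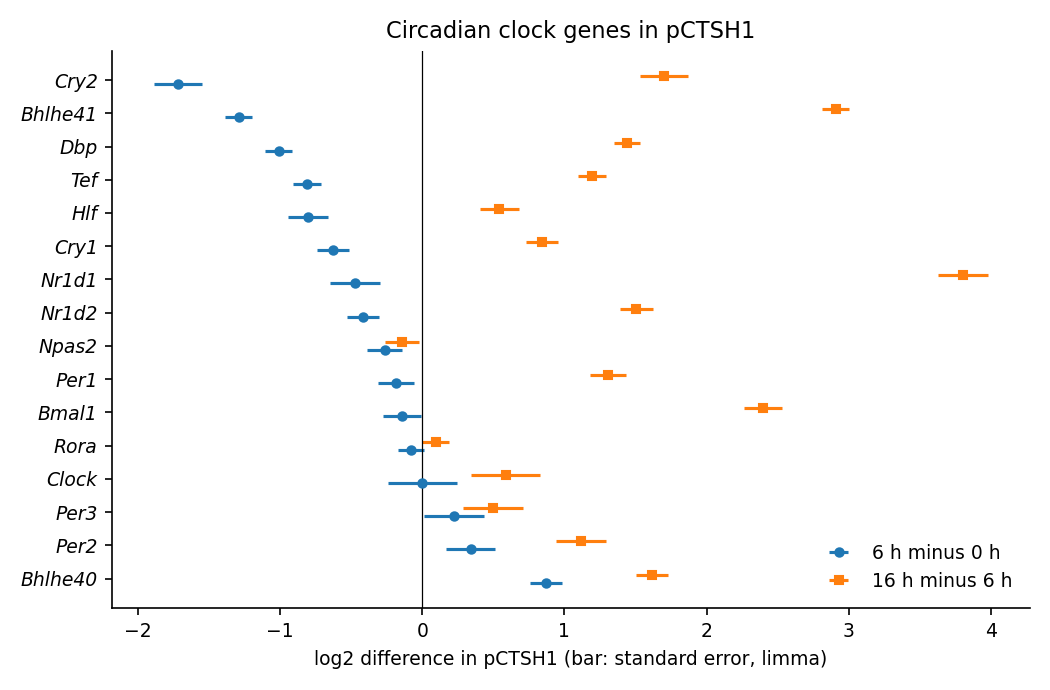
Difference in log2 level in pCTSH1 (horizontal axis; bars are limma standard errors) for the 16 measured circadian clock genes (vertical axis), as 6 h minus 0 h (blue circles) and 16 h minus 6 h (orange squares). Cry2 lies at −1.72 and 1.70, nearly mirror values, while Nr1d1 lies at −0.47 and 3.80.

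Of 11 signalling kinases, adaptors and regulators, 10 fell (21.3% of all genes) and 10 rose (24%) in pCTSH1. Rps6ka2, a kinase of the RSK family downstream of ERK, read 7.63, 7.72 and 7.47 at 0 h, 5.45, 5.42 and 5.88 at 6 h and 7.49, 7.42 and 7.21 at 16 h. Its fall of −2.02 ± 0.14 was as deep as in pcDNA (−2.05), and it rose by 1.79 ± 0.14 (limma adjusted p = 4.79e-10 and 1.79e-09). The receptor adaptor Grb7 changed by −1.09 and 0.99. Sesn1, a p53 and FoxO target that restrains mTORC1, read 8.61, 8.50 and 8.36 at 0 h, 7.0, 7.29 and 7.24 at 6 h and 9.03, 8.85 and 9.06 at 16 h. It rose past its start, by 0.49 ± 0.10 (adjusted p = 0.000274). In pcDNA its 16 h minus 0 h difference was 0.31.

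Inka1, an inhibitor of the kinase PAK4, was the gene with the weakest course in pCTSH1. It read 5.15, 5.38 and 5.28 at 0 h, 5.05, 5.12 and 4.93 at 6 h and 5.05, 5.43 and 5.11 at 16 h. Neither the fall (−0.24 ± 0.17, limma adjusted p = 0.362) nor the rise (0.16 ± 0.17, adjusted p = 0.499) passed the test. The RNA-binding protein gene Lsm14b was the other without a called fall (−0.62 ± 0.27, adjusted p = 0.109). Its 0 h arrays read 6.16, 5.14 and 6.39, and without the second of them the fall was −1.0 (adjusted p = 0.00454).

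Cell cycle, centrosome and repair genes numbered 7, and all 7 fell and rose (6.97% of all genes). Rgcc, a complement-induced regulator of cell cycle kinases, read 7.33, 7.42 and 7.19 at 0 h, 5.25, 5.34 and 5.47 at 6 h and 7.01, 6.89 and 6.83 at 16 h in pCTSH1. Its changes were −1.96 ± 0.20 and 1.56 ± 0.20, and every 16 h array lay below every 0 h array, a difference of −0.40 that did not pass the test (adjusted p = 0.11). Cables1, which links cyclin-dependent kinases to other kinases, had the deepest fall in pCTSH1. It read 7.91, 7.95 and 7.31 at 0 h, 5.63, 5.28 and 5.51 at 6 h and 7.17, 7.31 and 7.43 at 16 h. The fall was −2.25 ± 0.17 and the rise 1.83 ± 0.17 (limma adjusted p = 3.62e-09 and 3.61e-08).

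Of the 25 genes measured on the DNA replication list, which was not chosen by time course, 13 fell at 6 h in pCTSH1 (21.3% of all genes). Between 6 h and 16 h 5 rose (24%) and 14 fell (25.2%). The 2 that fell and then rose (6.97%) were Cdt1 and Chaf1a. None of the 25 is among the 95, a set that holds only 0.707% of all genes.

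All 7 genes for transporters, channels and their partners fell and rose (6.97% of all genes). Of the 7, 4 were called between 16 h and 0 h, a share near that of all genes (55.2%). Slc40a1 encodes ferroportin, the iron exporter. Its arrays in pCTSH1 read 7.93, 7.69 and 7.74 at 0 h, 6.35, 5.88 and 6.40 at 6 h and 7.20, 7.25 and 6.42 at 16 h. It fell by 1.58 and rose by 0.74 ± 0.19 (limma adjusted p = 0.00255), which left it 0.83 below the 0 h level (adjusted p = 0.000804), the largest shortfall of the 95. A second Slc40a1 probe set fell by 2.10 and then by a further 0.45, so the probe sets disagree on the rise.

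Slco4a1, an organic anion transporter, read 8.84, 8.75 and 8.79 at 0 h, 7.37, 7.06 and 7.30 at 6 h and 8.34, 8.70 and 8.56 at 16 h in pCTSH1, each higher than in pcDNA at the same time, where it read 8.14, 8.13 and 8.23, then 6.37, 5.98 and 6.69, then 8.05, 8.11 and 7.86. Wfs1, the endoplasmic reticulum protein lost in Wolfram syndrome, read 7.65, 7.50 and 7.22 at 0 h, 6.37, 6.33 and 6.27 at 6 h and 6.92, 6.97 and 7.10 at 16 h. It stayed 0.45 below its start (adjusted p = 0.0179), in pcDNA 0.34. A second Wfs1 probe set fell by 0.56 with no called rise (0.04). The second Slco4a1 probe set fell by 1.36 and rose by 0.55 in pCTSH1. It ended 0.81 below its start (limma adjusted p = 0.000535), while the brighter Slco4a1 probe set was not called there (−0.26). Kcnk3, an acid-sensitive background potassium channel, was the only channel of the 20 measured on the list that is in the set (−0.73 and 0.76). On that list 5 genes fell at 6 h (21.3% of all genes), 5 rose and 5 fell afterwards (24% and 25.2%), shares near those of all genes, and Kcnh2 was the other with a fall and a rise (−0.79 and 2.10).

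The 6 metabolic and redox enzymes all fell and rose (6.97% of all genes). Akr1c19, an aldo-keto reductase, had close replicates, with 9.71, 9.70 and 9.67 at 0 h, 7.88, 7.71 and 7.71 at 6 h and 9.61, 9.78 and 9.48 at 16 h in pCTSH1. Its changes were −1.93 ± 0.10 and 1.86 ± 0.10 (limma adjusted p = 4.99e-12 and 9.77e-12). Ppp1r3b, which targets protein phosphatase 1 to glycogen, read 9.20, 8.97 and 9.02, then 7.47, 7.35 and 7.39, then 8.87, 8.64 and 8.92. Ak4 (−1.04 and 1.15), the collagen prolyl hydroxylase P4ha1 (−0.99 and 1.16), the glycolytic Eno2 (−1.15 and 0.83) and the cytochrome P450 reductase Por (−0.92 and 0.57) also fell and rose.

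Of 20 cholesterol synthesis genes, 14 fell at 6 h (21.3% of all genes) and 5 rose thereafter (24%), 4 doing both (6.97%). None of the 20 met the limits in pcDNA (0.707% of all genes).

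Ubiquitin and folding genes numbered 4 and vesicle traffic genes 6, and all fell and rose (6.97% of all genes). Bag2, a cochaperone of HSP70, read 7.07, 7.23 and 6.95 at 0 h, 5.21, 5.52 and 5.22 at 6 h and 6.81, 6.52 and 6.30 at 16 h in pCTSH1, with no overlap between any 2 times. Its rise of 1.23 ± 0.14 made up for part of the fall (−1.77 ± 0.14) and left it 0.54 lower (adjusted p = 0.00355). The deubiquitinase Otub2 changed by −1.72 and 1.73 in pCTSH1, beside −1.38 and 1.51 in pcDNA. The synaptotagmin Syt17 changed by −1.24 and 0.92 and the Rab-interacting Rilpl1 by −1.17 and 0.86. Of 14 insulin granule exocytosis genes measured on the list, 7 fell at 6 h (21.3% of all genes). Afterwards 5 rose and 6 fell (24% and 25.2%), and Rab3a and Syt7 fell and then rose (6.97%). None of the 14 is among the 95 (0.707% of all genes).

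Of 7 genes of the cytoskeleton and matrix, 7 fell (21.3% of all genes) and 5 rose (24%). The laminin chain Lama5 fell and rose in full (−1.24 and 1.25). Sptbn4, a spectrin of excitable membranes, read 7.33, 7.35 and 7.12 at 0 h, 6.10, 6.15 and 6.58 at 6 h and 6.37, 6.80 and 6.95 at 16 h, and its rise of 0.43 ± 0.18 missed the threshold (adjusted p = 0.0651). The actin filament cap Tmod2 rose by 0.33 ± 0.16 (adjusted p = 0.106), with 16 h arrays at 7.81, 7.42 and 7.04 that spread from its 0 h level to its 6 h level. Lrrn3, a leucine-rich repeat membrane protein, and Inka1 above were the other genes with no called rise.

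Genes that did not keep to the pattern in pCTSH1 were 29 in all, of which 19 fell short of their start. Nedd9, a scaffold of focal adhesion signalling, read 7.43, 7.36 and 7.44 at 0 h, 6.19, 6.18 and 5.74 at 6 h and 6.66, 6.46 and 6.91 at 16 h. It stood 0.73 below its start in pCTSH1 (limma adjusted p = 8.58e-05), while in pcDNA it stood 0.16 above. A second Nedd9 probe set fell by 1.26 and rose by 0.95 in pCTSH1. Its 16 h minus 0 h difference of −0.31 was not called (limma adjusted p = 0.112). Mcf2l ended 0.65 lower (adjusted p = 0.000113), Lrrn3 0.60 lower (adjusted p = 0.00517), the adaptor gene Sh2d3c 0.58 lower (adjusted p = 0.000225) and Sptbn4 0.56 lower (adjusted p = 0.0152). Lrrn3 is also the gene just inside the limit on the rise in pcDNA (0.82), and in pCTSH1 it rose by 0.14.

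Overshoots of more than 0.4 were seen in 3 genes. Cbfa2t3, a transcriptional corepressor, read 6.43, 6.21 and 6.70 at 0 h, 5.86, 5.67 and 5.53 at 6 h and 7.64, 7.46 and 7.19 at 16 h in pCTSH1. It ended 0.98 ± 0.24 above its start (limma adjusted p = 0.00161). In pcDNA, where the choice held this difference within 0.4, it was 0.12. Fgf13, an intracellular partner of sodium channels, read 6.25, 6.44 and 6.72, then 5.69, 5.71 and 6.39, then 7.35, 7.16 and 7.01. The fall of Fgf13 was small (−0.54 ± 0.16, adjusted p = 0.0188), 1 of its 6 h arrays lay inside the range of the 0 h arrays, and it ended 0.70 higher (adjusted p = 0.00128). Sesn1 was the other.

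**Figure D5:**
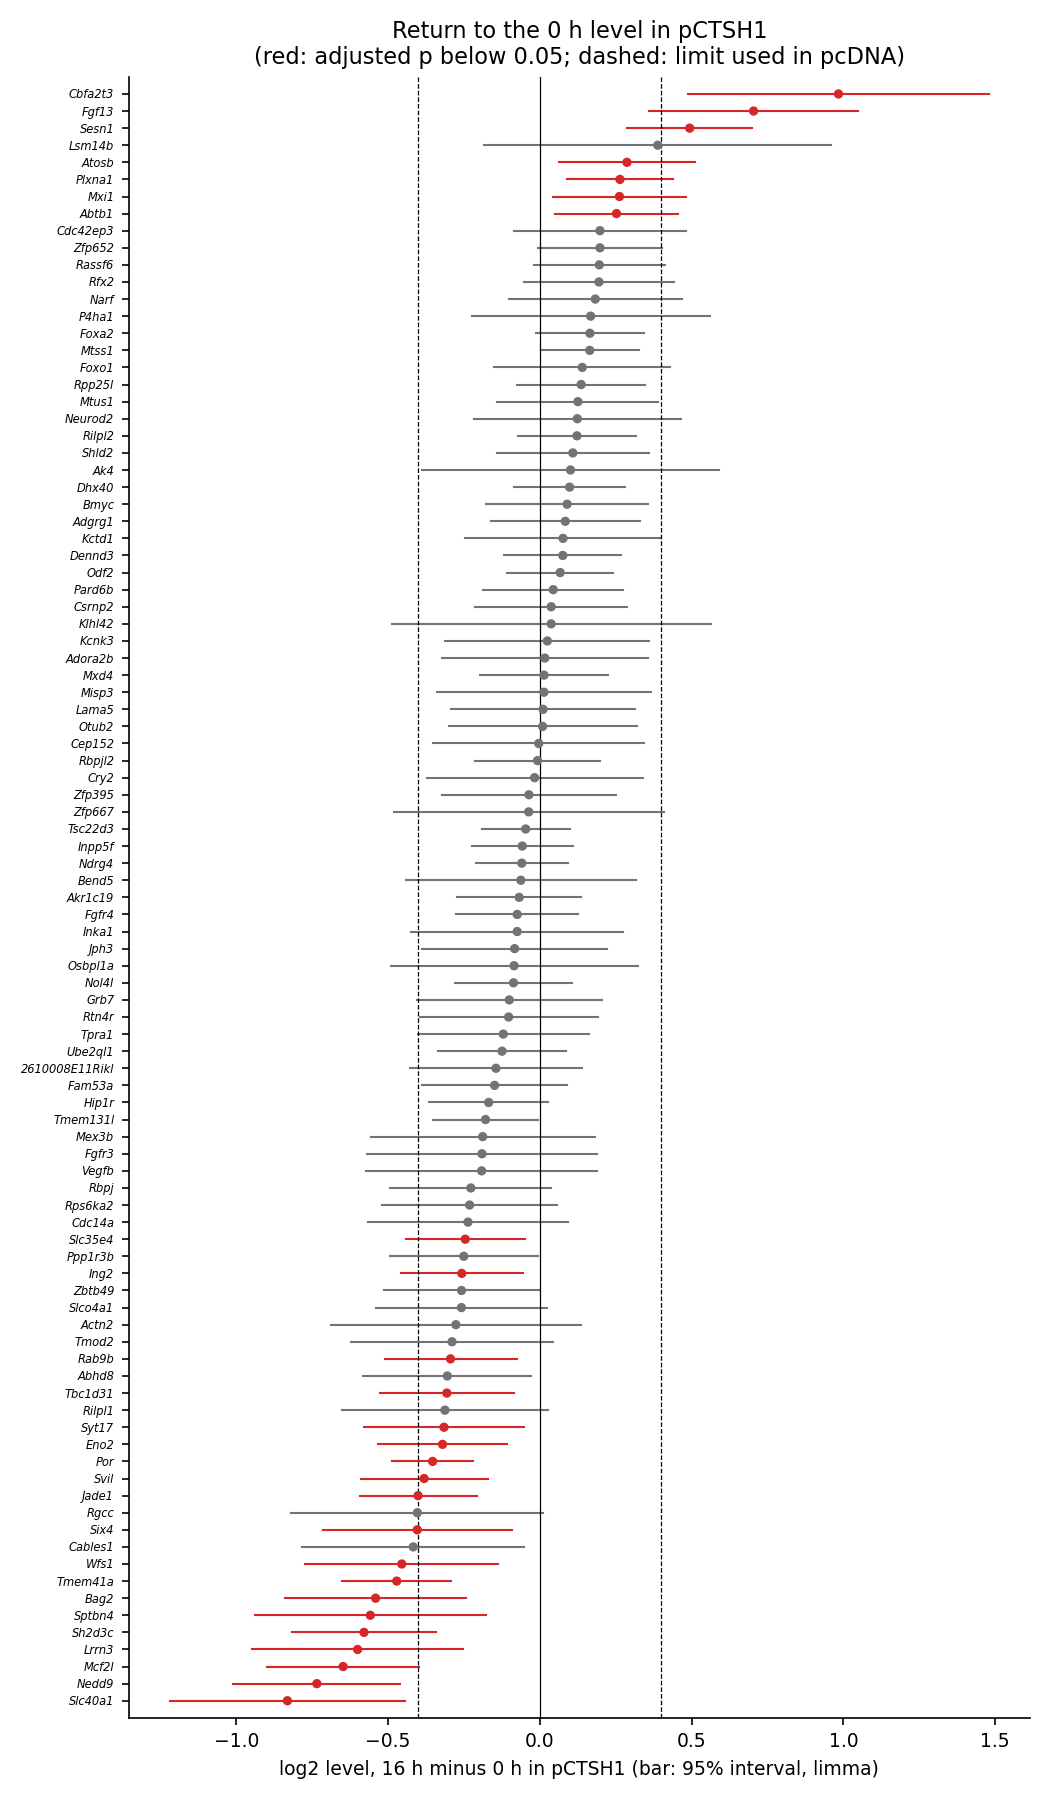
Difference in log2 level between 16 h and 0 h in pCTSH1 (horizontal axis) for each of the 95 genes (vertical axis), with its 95% interval from limma; red marks an adjusted p below 0.05 and dashed lines the limits of 0.4 used in pcDNA. The 19 red intervals below 0 run down to Slc40a1 at −0.83, and the 7 above 0 run up to Cbfa2t3 at 0.98.

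Calls between 16 h and 0 h depended on single arrays. Their number was 26 with all arrays and 16 without the second pCTSH1 array at 0 h. Among those no longer called there were Wfs1 (adjusted p = 0.0517) and Sptbn4 (adjusted p = 0.0531). The call on the fall was lost for Fgf13, Cbfa2t3, Klhl42 or Cep152 when any 1 of the 6 pCTSH1 arrays at 0 h and 6 h was left out (adjusted p = 0.0537 to 0.154). The call on the rise was lost for Mcf2l, Cdc14a, Tbc1d31 or Cep152 when any 1 of the 6 arrays at 6 h and 16 h was left out (adjusted p = 0.0540 to 0.189).

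The dip was shallower in pCTSH1 than in pcDNA for 79 of the 95 genes, the rise smaller for 82 and the level at 16 h lower relative to 0 h for 71, all without a test because choosing on pcDNA favours larger values there. With the choice turned round, the 69 genes that met the limits in pCTSH1 had a median fall of −1.10 there and −1.15 in pcDNA, and a median rise of 1.17 and 1.39. Of these 69 genes 42 (60.9%) are also among the 95, so the turned-round choice is not independent of the first. The median fall and the median rise were larger in pcDNA under both choices, the fall of the 69 only slightly. Of the 69 genes, 27 had a smaller fall in pcDNA and 20 a smaller rise there. The effect of the choice was not tested, and no difference between the lines is drawn from these values. The median 16 h minus 0 h difference in pCTSH1 less that in pcDNA was −0.12 over those 69 genes, −0.13 over the 95 and −0.003 over all genes. It lay below 0 for 50 of the 69.

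Before cytokines, pCTSH1 was compared with untransfected INS1 cells, neither of which entered the 3 limits of the choice. At 0 h 8 of the 95 genes were called different, against 3.45% of all genes. In pCTSH1 4 were higher (4.21%, against 2.28% of all genes) and 4 lower (4.21%, against 1.16%). The share not called was 91.6%, below the 96.6% of all genes. Misp3 (0.88 ± 0.17 higher, limma adjusted p = 0.00425), Slco4a1 (0.61), Ndrg4 (0.37) and Por (0.37) were higher in pCTSH1. Fgf13 (0.96 ± 0.16 lower, adjusted p = 0.00168; means 6.47 and 7.43), Bend5 (0.81 lower), Zfp395 (0.57 lower) and Fgfr4 (0.49 lower) were lower in pCTSH1. Without the first pCTSH1 array or the second INS1 array 5 of the 8 calls were made, with Slco4a1, Bend5 and Zfp395 missing both times.

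The level at rest is partly set by the choice, since a gene near background cannot fall by 0.8. The median level of the 95 genes at 0 h in pCTSH1 was 7.73, with a range of 4.83 to 10.74, against 6.96 over all genes. The median SD between replicates in pCTSH1 was 0.115 at 0 h, 0.145 at 6 h and 0.137 at 16 h for the 95 genes, against 0.104, 0.0922 and 0.122 over all genes, so that the replicates of the 95 lay furthest apart at the low point. Bend5 and Jph3 had 6 h means in pCTSH1 less than 0.5 above background, which compresses their falls.

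Other probe sets for the same genes gave a partial check. For 46 of the 95 genes there were 64 further probe sets, 43 of them above background at 0 h in pCTSH1. Of the 64, 30 fell at 6 h, 31 rose afterwards and 21 did both, for 19 genes. Among all probe sets 16% fell, 19.4% rose and 4.8% did both, and none of the 64 was called higher at 6 h (10.7% of all probe sets). Sesn1 had a second probe set with the same course (−1.05 and 1.37). The second Otub2 probe set fell by 1.19 and rose by 3.07, well past its start. Those of Abhd8 (−0.80, then −0.55) and Tmem131l (−0.39, not called, then −1.77) went on falling after 6 h.

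The limits fell among genes of nearly equal values. Just inside the limit on the fall in pcDNA were Atosb (−0.803), Tsc22d3 (−0.803) and Tmem131l (−0.819), and just outside Psph (−0.795), Coro2b (−0.78) and Ankrd54 (−0.77). For the rise, Lrrn3 (0.82), Six4 (0.82) and Fam53a (0.83) were just inside and C14h4orf19 (0.795), Marchf3 (0.77) and B4galt7 (0.76) just outside. For the return, Ube2ql1 (−0.390), Mxi1 (0.390) and Abtb1 (0.387) were just inside and Mylip (−0.40003), Zbtb8a (0.403) and Rita1 (−0.405) just outside. In pCTSH1, Coro2b changed by −0.79 and 0.83 and Atosb by −0.68 and 0.97.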

How the data were processed

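RNA of 21 INS-1 samples was measured on Affymetrix arrays. The authors summarised each probe set with RMA, and the deposited unit is log2 intensity, per the submitters' processing notes, which also name affy and limma without versions. RMA normalizes arrays together, so pcDNA and pCTSH1 values are not fully independent. Values were used as deposited, with no filter on dim values; 95 control probe sets were set aside and 31042 tested. In GEO's platform annotation 19063 of these had 1 symbol, 572 had several and 11407 were absent. Each gene was represented by the probe set with 1 symbol and the highest mean over all 21 arrays.

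limma 3.58.1 (R 4.3.3) fitted 1 model of 7 group means over 21 arrays (lmFit, eBayes with default settings), two-sided, with Benjamini-Hochberg adjustment over 31042 probe sets in each comparison and a threshold of 0.05. Values after ± are its standard errors. The precision is limited by the 3 arrays of a group. Counts of called genes among the 95 and in the lists are set beside the share of all 13438 genes with that call. Plots were made in Python 3.11.15 (matplotlib 3.10.9).

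The members and lists were chosen with earlier results of these data known. Named in the text are the 12 genes with the deepest fall in pcDNA, up to 4 members of each list, 10 that did not keep to the pattern, those next to each limit, further members with a textbook role, and Ins1, Ins2 and Rac2; other names and the role groups were chosen after their values were seen. The alternatives tried were a block for the replicate number, other normalizations, another variance setting, a fit on the groups compared, a filter on dim probe sets, the mean over probe sets, other limits and each array left out.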

Additional observations from a re-analysis of the deposited data

How the results depend on the processing

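The counts of called genes and the medians in pCTSH1 kept their direction under every alternative run, except the median difference between 16 h and 0 h, which was −0.07 as reported, 0.02 with arrays centred on their medians and 0.054 with cyclic loess. Centring moved the median 16 h minus 6 h change of all genes to 0.10. Between the pCTSH1 times, residual correlations of samples with the same replicate number ran from −0.0617 to 0.0509, and between pCTSH1 and INS1 at 0 h from 0.0679 to 0.168, so in neither comparison did every number pass 0.1. Over the 21 pairs of groups they ran from −0.0903 to 0.244. In 2 pairs, INS1 with pcDNA and pcDNA with pCTSH1, both at 0 h, all 3 numbers were above 0.1. Neither of these 2 was a tested comparison, but pcDNA with pCTSH1 joins the arrays of the choice to those of the test. Between these lines the correlations were 0.106 to 0.239 at 0 h, 0.0835 to 0.206 at 6 h and 0.0397 to 0.244 at 16 h. Deviations shared in this way could carry the choice into the pCTSH1 values, which was not tested. With the replicate block 93 genes fell, 92 rose, 91 did both, 27 differed between 16 h and 0 h and 8 differed from INS1; no count moved by over 1.5 times.

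With a fall and rise of 1.0 there were 49 genes, of which 48 fell, 48 rose, 47 did both, 14 differed between 16 h and 0 h, 5 differed from INS1 and 21 met the limits in pCTSH1, with medians of −1.17 and 1.13. With 0.6 there were 199 genes, of which 191 fell, 175 rose, 170 did both, 66 differed between 16 h and 0 h, 13 differed from INS1 and 93 met the limits, with medians of −0.78 and 0.70. With a return within 0.2 there were 61 genes, of which 59 fell, 58 rose, 57 did both, 11 differed between 16 h and 0 h and 22 met the limits.

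Cyclic loess gave a median fall of −0.88. With the limits applied anew in pcDNA, 73 genes met them with cyclic loess and 76 with the mean over probe sets. With arrays centred on their medians 99 did, against 95 as reported. The mean over the probe sets of a gene gave a median fall of −0.84 and 27 genes within the limits, and reversed the second change of Tmem131l to −0.59. A fit on the groups compared gave 5 genes different from INS1; the cause was not tested.

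Leaving out 1 array at a time, pcDNA arrays of the choice included, gave 89 to 111 genes, of which 86 to 106 fell, 84 to 103 rose, 83 to 101 did both, 16 to 31 differed between 16 h and 0 h, 5 to 9 differed from INS1 and 37 to 48 met the limits. The medians ran from −1.02 to −0.93, from 0.82 to 0.95 and from −0.11 to −0.04.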

Other observations

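Counts of calls in pCTSH1 for other gene groups (limma, adjusted p below 0.05) stand beside those of all genes, of which 21.3% fell and 13% rose at 6 h, 24% rose and 25.2% fell between 6 h and 16 h, and 6.97% fell and then rose. Of 24 immediate early genes, which respond to stimuli without new protein synthesis, 16 were higher and 2 lower at 6 h, 7 rose and 11 fell between 6 h and 16 h, and none fell and then rose. Of 26 ribosome biogenesis genes 2 fell and 4 rose at 6 h, and 14 rose and 1 fell afterwards; Dkc1, a component of small nucleolar ribonucleoproteins, fell and rose (−0.35 and 0.64). Of 31 regulators of G protein signalling, adenylate cyclases and phosphodiesterases, 5 fell and 5 rose at 6 h and 7 rose and 8 fell afterwards, shares near those of all genes; Adcy6, an adenylate cyclase, was the 1 that fell and then rose (−0.66 and 0.90).

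Falls that reversed were also seen in gene groups outside the 95. Of 18 BMP, Notch and Wnt target genes 5 fell at 6 h and 4 of them rose again: the helix-loop-helix inhibitors Id1 (−0.82 and 1.25), Id2 (−1.39 and 2.53) and Id3 (−0.39 and 1.19) and the decoy receptor Bambi (−1.82 and 3.13), which stood 1.32 above its 0 h level at 16 h. The 4 cholesterol synthesis genes that fell and rose were Insig1, which retains the sterol sensor SCAP (−1.75 and 1.88), Fdft1 (−1.38 and 1.98), Msmo1 (−0.89 and 1.35) and Cyp51 (−0.60 and 0.42). Of 28 histone methyltransferases and demethylases 7 fell and 5 rose at 6 h, 15 rose and 4 fell afterwards, and 5 fell and rose, among them Setd1a (−0.39 and 1.08) and Kdm4b (−0.65 and 0.48). No test compared these lists with the 95 genes.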
